A study of Mus musculus with 6 samples.

Results

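The aldehyde dehydrogenase isoforms described here are the mouse genes Aldh1a1, Aldh1a2, Aldh1a3, Aldh1a7, Aldh1b1, Aldh1l2, Aldh2, Aldh3a1, Aldh3a2 and Aldh3b1, measured on expression arrays of 4434 melanoma cells. Their members were taken by symbol, as every probe set that the platform annotation gives to exactly 1 of these genes. A probe set is a group of short probes that are summarised to 1 value. The rule found 16 of 45037 probe sets, which stand for 10 of 18193 genes. Aldh2 had 5 probe sets, Aldh1a3 had 3 and each of the other 8 genes had 1.

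The arrays compare partially reprogrammed cells (+ dox, 3 arrays) with control cells (− dox, 3 arrays), all at day 20. 4434 is a mouse melanoma line with mutant Braf. All cells held 2 lentiviral vectors, of which 1 carried doxycycline-inducible Oct4, Sox2 and Klf4 with a blasticidin resistance gene and the other the transactivator that doxycycline switches on. + dox cells received doxycycline and, as the methods describe it, blasticidin from day 3, whereas − dox cells were kept in medium without doxycycline, so the factors, the drug and the selection cannot be told apart in this comparison. The sources do not say whether replicate arrays came from separate cultures, so that p-values describe the spread of these 6 arrays alone, which may be technical.

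Aldehyde dehydrogenases oxidise aldehydes to carboxylic acids with NAD or NADP as cofactor. The cytosolic members Aldh1a1, Aldh1a2 and Aldh1a3 turn retinaldehyde into retinoic acid, the ligand of the retinoic acid receptors. Aldh2 and Aldh1b1 work in mitochondria on acetaldehyde and related small aldehydes, while Aldh3 enzymes handle fatty and aromatic aldehydes, many of them products of lipid peroxidation. High aldehyde dehydrogenase activity is widely used as a marker of stem-like cells in tumours, including melanoma.

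Values are log2 RMA levels, on which a difference of 1 is a doubling. Probe sets differ in how strongly they hybridise, so levels were compared between arrays and not between genes. The lower quartile of all probe sets lay between 3.84 and 3.90 in the 6 arrays and serves as a mark of the dim end of the scale. Array + dox 1 lay nearest to the − dox arrays on the first principal component (10.5, against 41.9 and 54.4 for + dox 2 and 3), and − dox 1 stood apart from − dox 2 and 3 on the second, so results are also given without these arrays where that matters. Among the vector genes, Pou5f1, which encodes Oct4, had levels of 4.77, 5.32 and 4.92 in + dox arrays, against 4.13, 4.21 and 4.42 in − dox arrays (adjusted p = 0.0566). Sox2 stood at 7.53, 7.13 and 6.93 in + dox arrays, against 7.56, 8.04 and 8.11 in − dox arrays (adjusted p = 0.113), and Klf4 at 7.94, 7.48 and 7.76 in + dox arrays, against 9.23, 7.85 and 7.85 in − dox arrays (adjusted p = 0.450). None of the 3 was called, Sox2 and Klf4 were not above the − dox level, and the part of each vector transcript that the probes cover was not analysed here. Of 7 melanocyte markers, 0 were called. Tyr and Mlana, both defining genes of pigment cells, lay under the lower quartile in all 6 arrays, and Tyrp1 in 5 of them. Mitf, Sox10, Pmel and Dct lay above it in all 6 arrays. Mitf averaged 6.47 ± 0.33 in + dox and 7.23 ± 0.80 in − dox cells (SD, n = 3 each). Sox10 averaged 6.34 in + dox and 6.23 in − dox cells, Pmel 5.36 and 5.34, and Dct 4.41 and 4.36.

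Partially reprogrammed cells differed from control cells in 2 of the 10 isoforms. Aldh3a1 and Aldh1a1 were higher in + dox cells, and 0 isoforms were called lower (limma, Benjamini-Hochberg adjusted p under 0.05 over all genes). Over all 18193 genes the same test called 4.87%, of which 3.07% of genes were higher and 1.80% lower in + dox cells. The isoforms were chosen with earlier results of these data known, so the shares are given as a description. The 10 other measured aldehyde dehydrogenase genes gave 0 calls. Before adjustment, 5 of the 10 isoforms had a p under 0.05 (3 higher, 2 lower), against 21.7% of all genes. The 3 + dox arrays did not overlap the 3 − dox arrays in 5 isoforms (Aldh3a1, Aldh1a1 and Aldh3a2 higher, Aldh2 and Aldh3b1 lower), against 26.9% of all genes (14.3% higher, 12.6% lower). The median change of the 10 isoforms was 0.08, beside 0.01 for all genes. In cultures of this kind, a change in the share of expressing cells and a change in RNA per cell cannot be told apart.

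**Figure D1:**
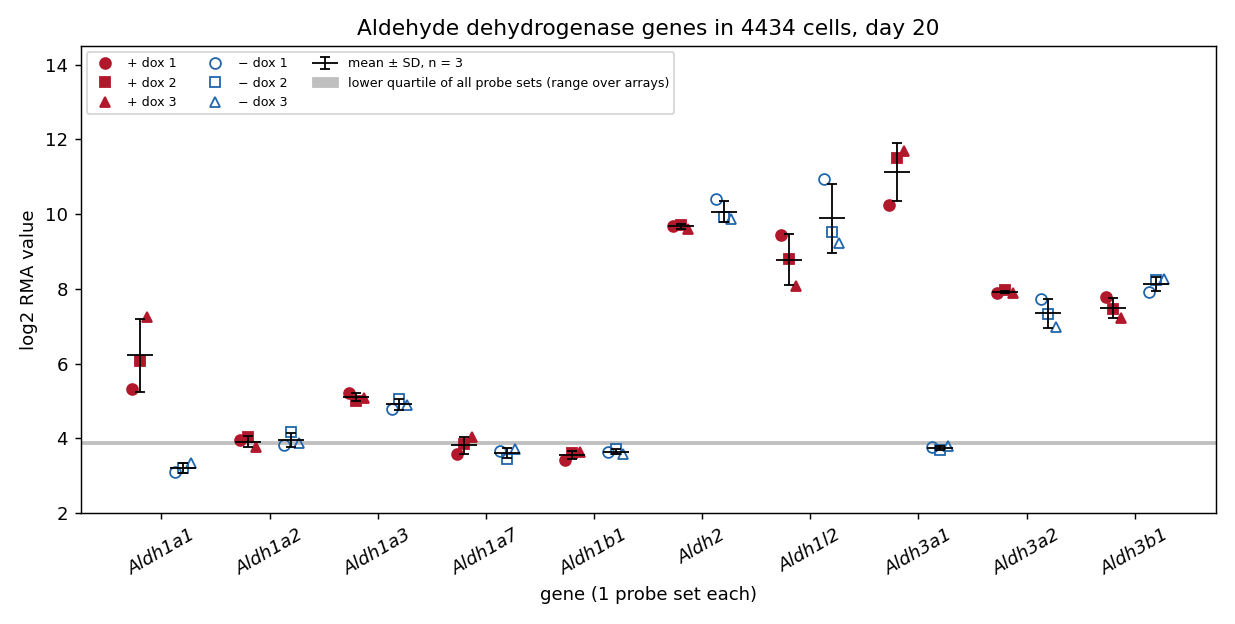
Log2 RMA value (vertical axis) of the 10 aldehyde dehydrogenase genes (horizontal axis), each by its probe set with the highest mean. Red filled markers show the + dox and blue open markers the − dox arrays, with a shape for each array number, black bars the mean ± SD of 3 arrays, and the grey band the lower quartile of all probe sets; Aldh3a1 lies at 10.25 to 11.68 in + dox arrays and at 3.68 to 3.79 in − dox arrays.

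Aldh3a1 carried by far the largest change among the isoforms. This enzyme oxidises medium-chain and aromatic aldehydes and is known as an abundant protein of the corneal epithelium. By its probe set 1418752_at it stood at 10.25, 11.49 and 11.68 in + dox 1, 2 and 3, against 3.77, 3.68 and 3.79 in − dox 1, 2 and 3. All 3 + dox arrays were in the bright part of the scale and all 3 − dox arrays under the lower quartile, with 6.46 log2 units between the closest arrays of both groups. Aldh3a1 averaged 11.14 ± 0.78 in + dox cells and 3.75 ± 0.06 in − dox cells (SD, n = 3 each), a change of 7.39 (SE 0.36, 95% interval 6.53 to 8.26, limma adjusted p = 0.000379). No fold is given, since the − dox level lies at the dim end, and the size of the change is uncertain for the same reason. Its call held whichever array was left out, with changes between 7.12 and 7.84 and adjusted p values of at most 0.00627. Within + dox cells the lowest array was + dox 1, and without both arrays numbered 1 the change was 7.85 (adjusted p = 2.89e-06).

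The genomic neighbour of Aldh3a1 was not called. Aldh3a2, the next protein-coding gene on chromosome 11, encodes the fatty aldehyde dehydrogenase of the endoplasmic reticulum, which is mutated in the human Sjögren-Larsson syndrome. Aldh3a2 levels were 7.89, 7.96 and 7.90 in + dox arrays, against 7.73, 7.32 and 6.98 in − dox arrays. The + dox arrays were nearly equal and all above the − dox arrays, among which − dox 1 came closest. The change was 0.57 (SE 0.19, 95% interval 0.12 to 1.02) and did not pass (adjusted p = 0.140). Aldh3a2 passed without − dox 1 (0.77, adjusted p = 0.0285) and without both arrays numbered 1 (0.78, adjusted p = 0.0128), and in no other fit that left arrays out.

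Aldh3b1 pointed the other way. This member of the Aldh3 family acts on lipid-derived aldehydes at membranes. It stood at 7.78, 7.47 and 7.23 in + dox arrays, against 7.91, 8.23 and 8.26 in − dox arrays, so that the groups did not overlap but came within 0.13 of each other, at + dox 1 and − dox 1. The change of −0.64 (SE 0.17, 95% interval −1.05 to −0.23) missed the threshold (adjusted p = 0.0902). Without + dox 1 the change was −0.78 (adjusted p = 0.0388), and without both arrays numbered 1 it was −0.90 (adjusted p = 0.00489). Aldh3b2, a further gene of the Aldh3 family that is not among the 10, had a change of 0.07 with overlapping groups (adjusted p = 0.762).

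Aldh1a1 was the other isoform that rose. It encodes a cytosolic retinaldehyde dehydrogenase and is the isoform most often linked to stem-like tumour cells. By its probe set 1416468_at the levels were 5.33, 6.07 and 7.26 in + dox 1, 2 and 3, against 3.09, 3.21 and 3.34 in − dox 1, 2 and 3. The groups lay 1.99 apart, all − dox arrays were under the lower quartile, and the + dox arrays spread over almost 2 log2 units. Aldh1a1 averaged 6.22 ± 0.97 in + dox cells and 3.21 ± 0.13 in − dox cells (SD, n = 3 each), a change of 3.01 (SE 0.45, 95% interval 1.93 to 4.08, adjusted p = 0.0211). As for Aldh3a1, no fold is given and the size of the change is uncertain, since it is taken against a level at the dim end. The direction was the same in every fit that left an array out (2.49 to 3.45). The limma call was kept without + dox 1 (adjusted p = 0.00478), + dox 3 (0.0201) or − dox 1 (0.0305). It was lost without + dox 2 (adjusted p = 0.0891), − dox 2 (0.0888) or − dox 3 (0.0899), where the change was 3.08, 3.005 and 3.07. Leaving out these arrays also cut the calls over all genes, from 886 to 168, 121 and 118.

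Aldh1a7, the neighbour of Aldh1a1 on chromosome 19, is a rodent copy of it. To show how alike these 2 genes are where transcription begins, the 250 bases before their starts are printed from RefSeq (GRCm38.p6), in the direction of each gene. Aldh1a1 has 2 annotated starts, and the downstream one is shown. Capitals mark bases that are identical in the aligned stretch next to the start.
Aldh1a1, chr19:20601718-20601967, plus strand: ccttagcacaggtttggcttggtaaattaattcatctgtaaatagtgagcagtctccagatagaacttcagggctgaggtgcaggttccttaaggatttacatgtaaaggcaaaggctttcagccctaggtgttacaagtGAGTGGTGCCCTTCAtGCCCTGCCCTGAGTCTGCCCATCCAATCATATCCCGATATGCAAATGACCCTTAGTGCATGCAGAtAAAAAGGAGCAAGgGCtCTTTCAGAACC
Aldh1a7, chr19:20727557-20727806, minus strand: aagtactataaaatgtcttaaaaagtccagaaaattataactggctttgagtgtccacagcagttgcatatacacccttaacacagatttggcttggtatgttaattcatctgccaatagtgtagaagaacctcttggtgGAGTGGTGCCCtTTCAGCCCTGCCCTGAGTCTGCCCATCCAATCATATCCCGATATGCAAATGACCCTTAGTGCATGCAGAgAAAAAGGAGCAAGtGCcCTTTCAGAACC
Over 111 aligned positions at the start-proximal end, 106 were identical (95.5%). Only this best local alignment was kept. Likeness in the rest of both windows was not scored, so lower case there does not mark a lack of it. The window before the upstream start of Aldh1a1 gave only a stretch of 18 aligned positions with Aldh1a7.

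Aldh1a7 was not called. It stood at 3.58, 3.85 and 4.03 in + dox arrays, against 3.66, 3.46 and 3.72 in − dox arrays, with the groups overlapping and 5 of 6 arrays under the lower quartile. The change was 0.21 (SE 0.14, 95% interval −0.14 to 0.55, adjusted p = 0.478). The highest array of both genes was + dox 3, which was also the highest on the first principal component over all genes. Probe sequences were not used here, so whether either probe set also picks up transcripts of the other copy was not tested, and the values of both are uncertain to that extent.

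RefSeq gave 7 such windows for 6 of the 10 genes (Aldh1a1, Aldh1a2, Aldh1a7, Aldh1b1, Aldh3a2 and Aldh3b1), including the windows printed above. None was available for Aldh3a1, Aldh1a3, Aldh1l2 or Aldh2, so the search below says nothing about these genes. The letters GCGTG, the core bound by the aryl hydrocarbon receptor, were searched on both strands and occurred in the windows of Aldh1a2 and Aldh3a2, once each, and in 28.2% of all 32851 windows. The letters AGGTCA, the hexamer bound by retinoic acid receptors, occurred 2 times in the window of Aldh3b1 and in no other member window, against 14% of all windows.

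The other retinaldehyde dehydrogenases showed no called change. Aldh1a2, the main retinoic acid source of the early embryo, stood at 3.95, 4.04 and 3.76 in + dox arrays, against 3.82, 4.16 and 3.88 in − dox arrays. These levels overlapped near the dim end of the scale, and the change was −0.04 (95% interval −0.35 to 0.28, adjusted p = 0.918). Aldh1a3, an isoform known from human melanoma and breast tumours with high aldehyde dehydrogenase activity, stood at 5.22, 5.0 and 5.09 in + dox arrays, against 4.78, 5.06 and 4.90 in − dox arrays, by its brightest probe set 1427395_a_at. The change was 0.19 by that probe set (SE 0.11, 95% interval −0.08 to 0.46, adjusted p = 0.405). The 2 further probe sets of Aldh1a3 had changes of 0.18 and 0.46 and also overlapped between groups. For 1448789_at, the one with 0.46, + dox 2 stood at 4.59 and the other 5 arrays at 3.47 to 3.88.

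Aldh2, the mitochondrial enzyme that clears acetaldehyde after ethanol intake, was lower in + dox arrays in most of its probe sets but was not called. By the brightest, 1448143_at, it stood at 9.68, 9.72 and 9.61 in + dox arrays, against 10.40, 9.92 and 9.88 in − dox arrays. The + dox arrays were close together, and − dox 1 was the highest of all. The change was −0.40 (SE 0.16, 95% interval −0.77 to −0.02, adjusted p = 0.204), and it was −0.23 without − dox 1. The 4 further probe sets of Aldh2 had changes of −0.57, −0.54, −0.43 and −0.16, with adjusted p values over all probe sets between 0.0962 and 0.560. In 4 of the 5 probe sets every + dox array was below every − dox array, as in 5140 of all 45037 probe sets. Counting either direction, 23.4% of all probe sets had no overlap. The Aldh2 probe sets report 1 gene on the same arrays and are not independent.

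Aldh1b1, a mitochondrial relative of Aldh2, was at 3.42, 3.61 and 3.64 in + dox arrays, against 3.64, 3.71 and 3.58 in − dox arrays. All 6 arrays were under the lower quartile, and the change was −0.09 (95% interval −0.33 to 0.16, adjusted p = 0.697). A change of a gene that lies this low on every array may not have been detectable.

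Aldh1l2 had the largest standard error of the 10 isoforms. It encodes the mitochondrial formyltetrahydrofolate dehydrogenase, an enzyme of folate metabolism that makes NADPH. Levels were 9.45, 8.79 and 8.09 in + dox 1, 2 and 3, against 10.94, 9.51 and 9.22 in − dox 1, 2 and 3. The groups overlapped through + dox 1, which was above − dox 3, and − dox 1 stood far above all others. The change was −1.11 (SE 0.52, 95% interval −2.36 to 0.14, adjusted p = 0.287). Leaving out 1 array at a time gave −0.59 to −1.45 and no call. Without − dox 1 the change was −0.59, while without both arrays numbered 1 the remaining arrays did not overlap and Aldh1l2 passed, with −0.93 (adjusted p = 0.0393).

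**Figure D2:**
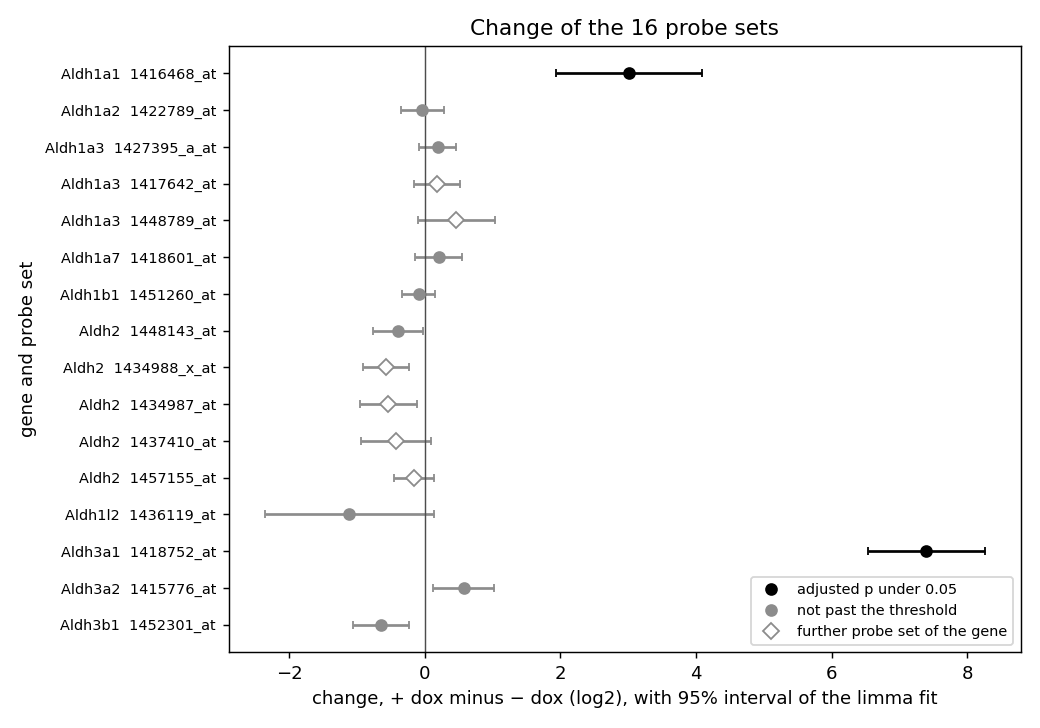
Change between + dox and − dox arrays on the log2 scale (horizontal axis) of the 16 probe sets (vertical axis), with the 95% interval of the limma fit over all probe sets. Circles are the probe sets that represent a gene, open diamonds further probe sets of the same gene, and black marks an adjusted p under 0.05; Aldh3a1 (7.39) and Aldh1a1 (3.01) stand to the right of all others, which lie between −1.11 and 0.57.

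Tested as probe sets, the result was the same. Of the 16 probe sets 2 were called, both higher, against 2.53% of all 45037 probe sets (1.64% higher, 0.884% lower). Adjusted over all probe sets, the p of Aldh1a1 was 0.0291 and that of Aldh3a1 was 0.000564. Aldh3b1 without + dox 1 and Aldh1l2 without both arrays numbered 1 passed only in the limma fit over genes. Over probe sets their adjusted p values were 0.0542 and 0.0741. Probe sets of 1 gene pointed the same way in Aldh2 (all 5 lower) and in Aldh1a3 (all 3 higher), although 0 of these 8 was called.

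The arrays differed in how much of the Aldh3a1 and Aldh1a1 rise they showed. Relative to the − dox mean of each gene, Aldh3a1 stood at 6.50, 7.74 and 7.93 in + dox 1, 2 and 3. Aldh1a1 stood at 2.12, 2.86 and 4.05 in the same arrays. + dox 1 was the lowest and + dox 3 the highest for both, as on the first principal component over all genes. Likeness to other genes was measured as the root mean square difference of such profiles over the 6 arrays, given as a description. The genes nearest to Aldh3a1 were Urah, which encodes an enzyme of urate breakdown (0.28), Msln, the gene of mesothelin (0.45), and Plet1 (0.54). Nearest to Aldh1a1 were Cacna2d2, which encodes an auxiliary calcium channel subunit (0.21), Lrrc4c (0.28) and Has2, a hyaluronan synthase gene (0.28).

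**Figure D3:**
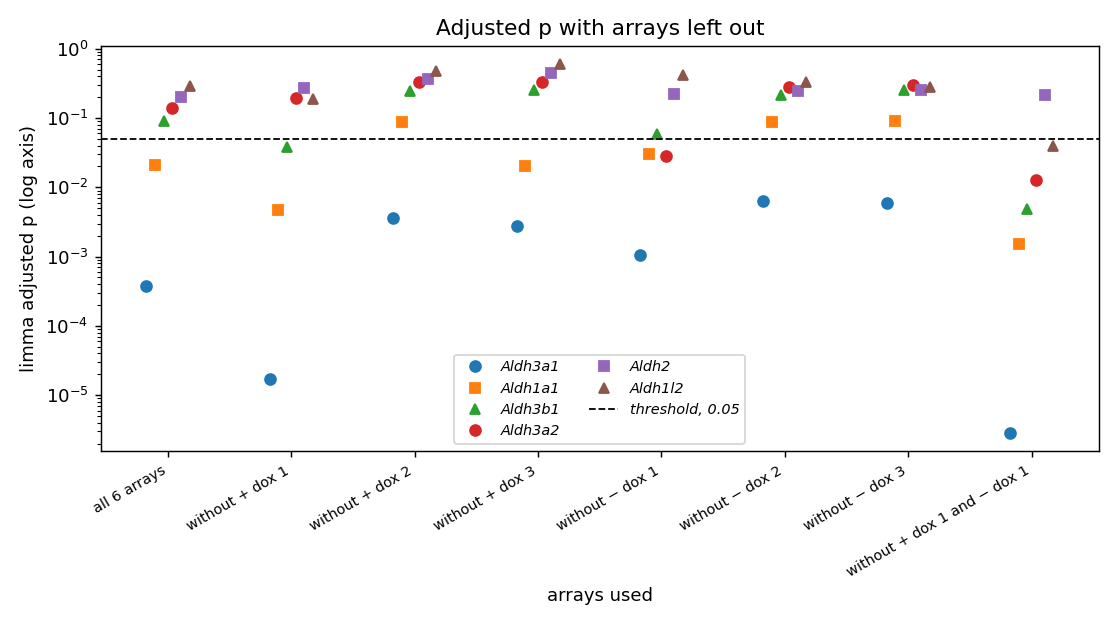
Limma adjusted p (vertical axis, log scale) of the 6 isoforms with the lowest p, by the arrays used in the fit (horizontal axis). Symbols under the dashed line passed the threshold of 0.05. Aldh3a1 passed in every fit (at most 0.00627), and Aldh1a1 missed the threshold without + dox 2, − dox 2 or − dox 3. Aldh3b1, Aldh3a2 and Aldh1l2 passed without both arrays numbered 1, a fit that called 3649 of all genes, against 886 with all 6 arrays.

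Genes of other cell types that also use these enzymes were checked beside the rises. Of 6 keratinocyte markers 1 was called, Krt14 (3.67, adjusted p = 0.00173). The mean log2 level of these 6 markers ranged from 5.16 to 5.31 in + dox arrays and from 4.46 to 4.65 in − dox arrays, and Trp63, the defining factor of basal keratinocytes, was under the lower quartile in all 6 arrays. The level of the list rested mainly on Krt14, since Krt10 had 0.55 (adjusted p = 0.322) and Krt5, Krt1, Ivl and Trp63 had −0.05, 0.07, 0.00 and −0.15, none of them called. Of 2 markers of corneal epithelium 0 were called, with Krt12 under the lower quartile in all 6 arrays and Pax6 at 0.01. The 4 immune markers averaged 4.62 to 5.40 in + dox arrays and 4.14 to 4.68 in − dox arrays, with 0 called and Ptprc under the lower quartile throughout. Cd68 stood at 6.40, 7.06 and 7.12 in + dox arrays, against 7.14, 4.91 and 4.82 in − dox arrays (1.24, limma adjusted p = 0.323). Itgam stood at 3.51, 3.95 and 5.84 in + dox arrays, against 3.20, 3.26 and 3.33 in − dox arrays (1.17, adjusted p = 0.301). Its highest array, + dox 3, was also that of Aldh1a1 and of the first principal component over all genes. Cd3e averaged 5.50 in + dox and 5.52 in − dox cells. Of 5 fibroblast markers 0 were called, and their mean level ranged from 4.974 to 5.08 in + dox arrays and from 4.712 to 4.972 in − dox arrays. Dcn, the decorin gene and 1 of these 5, stood at 7.13, 7.55 and 7.68 in + dox arrays, against 6.36, 6.78 and 6.68 in − dox arrays (0.85, adjusted p = 0.0525), while the other 4 overlapped between groups. Of 4 hepatocyte markers 0 were called. The part of these markers in the isoform values was not tested.

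Of 69 measured genes in 6 lists of related enzymes and targets, 5 were called, against 4.87% of all genes. The 10 measured other aldehyde dehydrogenase genes gave 0 calls by limma (3 with an unadjusted p under 0.05, against 21.7% of all genes), with a median change of −0.14. Aldh18a1, which makes the proline precursor pyrroline carboxylate, stood at 10.80, 10.66 and 10.18 in + dox arrays, against 11.63, 11.20 and 11.09 in − dox arrays, a change of −0.76 that did not pass (adjusted p = 0.0972). Aldh5a1, the succinate semialdehyde dehydrogenase of GABA breakdown, had −0.79 (adjusted p = 0.136). Both groups of arrays were apart in 3 of the 10 genes, against 26.9% of all genes. These were Aldh18a1 and Aldh5a1, both lower in + dox arrays, and Aldh1l1, which was higher (0.26, limma adjusted p = 0.155).

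Retinoid enzymes make and clear retinaldehyde and retinoic acid. Of 18 measured, 1 rose and 0 fell (median change 0.01), where 3.07% of all genes rose and 1.80% fell. Rdh10, the retinol dehydrogenase that supplies retinaldehyde to the Aldh1a enzymes, stood at 9.22, 9.43 and 9.73 in + dox arrays, against 8.79, 8.14 and 7.99 in − dox arrays. Every + dox array was above every − dox array, and the change was 1.15 (2.22-fold, SE 0.24, adjusted p = 0.0478). This call lay at the edge of the threshold. It was lost in the limma fit over probe sets (adjusted p = 0.0643) and with the mean of the 2 Rdh10 probe sets (0.96, adjusted p = 0.111). It was also lost without + dox 2 (adjusted p = 0.158), + dox 3 (0.170), − dox 2 (0.142) or − dox 3 (0.157). Calls over all genes fell from 886 to 168, 151, 121 and 118 without these arrays. The next by p was Rpe65, the retinoid isomerase of the eye, with 0.47 (adjusted p = 0.0598) at the dim end of the scale. Cyp26a1 and Cyp26b1, which degrade retinoic acid, had −0.37 and 0.57 and were not called (adjusted p = 0.185 and 0.113).

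Of 6 measured retinoic acid response genes 1 rose and 0 fell (median change −0.03), against 3.07% and 1.80% of all genes. Tgm2, the gene of tissue transglutaminase, stood at 8.73, 10.01 and 10.17 in + dox arrays, against 7.63, 6.18 and 6.15 in − dox arrays. The groups were apart even though − dox 1 stood well above the other − dox arrays, and the change was 2.98 (7.91-fold, SE 0.53, adjusted p = 0.0330). Of the 6 Tgm2 probe sets 3 were called, and 1 lay under the lower quartile throughout, with a change of 0.13. The mean of the 6 probe sets had a smaller change, 2.09 (adjusted p = 0.0330). The Tgm2 call by limma was lost without + dox 2 (adjusted p = 0.130), + dox 3 (0.129), − dox 2 (0.113) or − dox 3 (0.129). In those fits, calls over all genes fell from 886 to between 118 and 168. Stra6, a receptor for retinol uptake and the next by p, had 0.09 (adjusted p = 0.754).

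Genes of the aryl hydrocarbon receptor pathway were included because Aldh3a1 is a classical target of that receptor in rodents. Whether the receptor had a part in the Aldh3a1 change was not tested. Of 8 measured, 2 rose and 0 fell, against 3.07% and 1.80% of all genes, with a median change of 0.03. Nqo1, the quinone reductase gene, stood at 6.49, 7.17 and 7.99 in + dox arrays, against 5.04, 5.36 and 5.34 in − dox arrays, a change of 1.97 (3.92-fold, SE 0.36, adjusted p = 0.0348). Like Aldh1a1 it was lowest in + dox 1 and highest in + dox 3, the order of these arrays on the first principal component over all genes. Tiparp, a target gene whose product represses the receptor, stood at 11.31, 11.88 and 11.66 in + dox arrays, against 10.30, 10.12 and 10.56 in − dox arrays, a change of 1.29 (SE 0.18, adjusted p = 0.0179). Its 3 probe sets had changes of 1.21 to 1.29 and were each called. The receptor gene Ahr had 1.30 and did not pass (adjusted p = 0.128). Cyp1a1 and Cyp1b1, the best-known targets, had −0.13 and 0.02 (limma adjusted p = 0.598 and 0.933). The remaining genes of this list, Cyp1a2, Ahrr and Arnt, had −0.17, −0.03 and 0.03 and were not called. When single arrays were left out, the call of Nqo1 held only without + dox 1 (otherwise limma adjusted p = 0.0506 to 0.129). That of Tiparp held only without + dox 1 or − dox 1 (otherwise 0.0598 to 0.0847). Without array 2 or 3 of either group, calls over all genes fell from 886 to between 118 and 168.

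**Figure D4:**
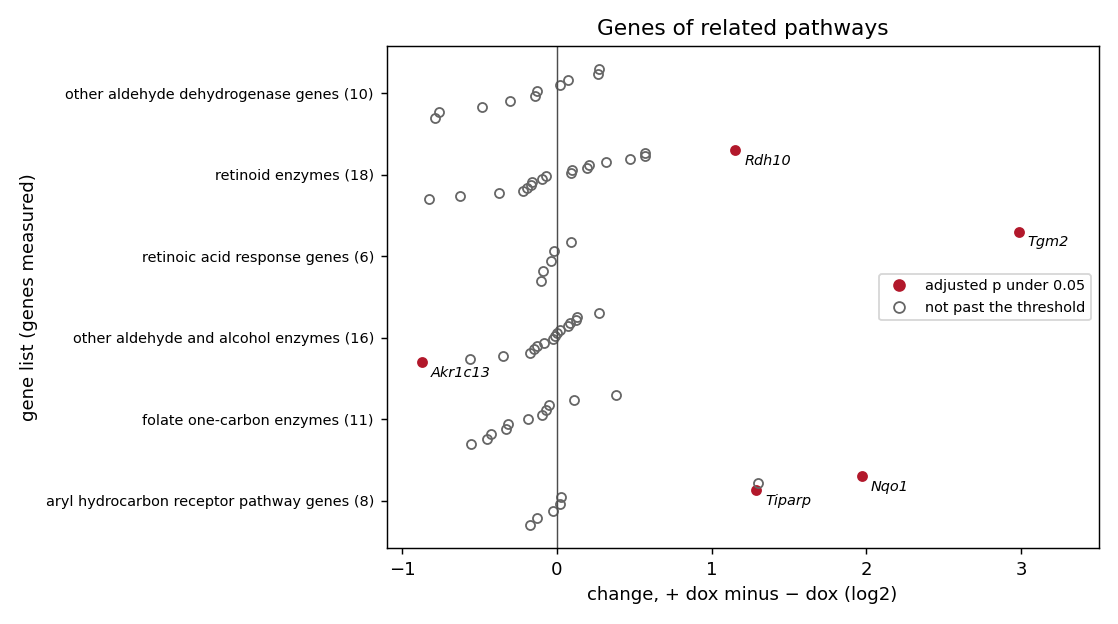
Change between + dox and − dox arrays on the log2 scale (horizontal axis) of each measured gene of the 6 gene lists (vertical axis, number measured in brackets). Filled red circles are genes with an adjusted p under 0.05 and open circles the others; 4 genes rose (Tgm2, Nqo1, Tiparp and Rdh10) and 1 fell (Akr1c13).

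Other enzymes that handle aldehydes and alcohols gave 0 rises and 1 fall among 16 measured (median change −0.02). Of all genes, 3.07% rose and 1.80% fell. Akr1c13, an aldo-keto reductase gene, stood at 6.13, 5.86 and 6.10 in + dox arrays, against 6.64, 6.88 and 7.18 in − dox arrays, and fell by 0.87 on the log2 scale (SE 0.16, adjusted p = 0.0366). Its limma call was lost without + dox 2 (adjusted p = 0.134), + dox 3 (0.125), − dox 2 (0.114) or − dox 3 (0.112). In those fits, calls over all genes fell from 886 to between 118 and 168. Akr1c genes are close copies of each other, so the Akr1c13 value is uncertain. Adh7, an alcohol dehydrogenase that also oxidises retinol, had −0.56 (adjusted p = 0.130). The folate enzymes that work with Aldh1l2 gave 0 calls by limma among 11 measured, with a median of −0.18. Of these 11, 3 had an unadjusted p under 0.05, against 21.7% of all genes. Mthfd2l, a mitochondrial folate enzyme, had −0.45 (adjusted p = 0.129), and Atic, an enzyme of purine synthesis, 0.38 (adjusted p = 0.137).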

How the data were processed

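RNA of 6 samples was hybridised to Affymetrix mouse expression arrays. The deposited values are log2 levels that the authors made by RMA (background correction, quantile normalisation, 1 summary per probe set) in Chipster, whose version and chip definition file are not given in the sources used here. Values ran from 2.08 to 14.44, as RMA log2 levels do. RMA compresses differences among dim probe sets. With 3 arrays a group, precision is limited by their number.

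Of 45101 probe sets, 64 array controls were left out. The platform annotation, checked through Entrez identifiers against RefSeq (0 symbols changed), gave 34945 probe sets 1 gene, 932 several and 9160 none. A gene was represented by whichever of its probe sets had the highest overall mean (18193 genes). Groups came from the labels. Both were compared in limma 3.58.1 under R 4.3.3 by lmFit and eBayes with no covariate. Two-sided p-values were adjusted by the Benjamini-Hochberg method within each fit, over genes or over probe sets, and called under 0.05. A change is the + dox mean minus the − dox mean. The fit was tested on simulated data.

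Named were all members, the vector genes, the nearest profiles and, per list, the called genes (at least the 2 lowest p-values). Further list genes, single markers and promoter windows were named after their values were seen. Members, the 6 lists (81 genes, 69 measured) and alternatives were chosen with earlier results of these data known. Alternatives were other gene summaries, filters on dim features, the replicate number as a block, other eBayes settings, further normalisation, arrays left out and a threshold of 0.01.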

Additional observations from a re-analysis of the deposited data

How the results depend on the processing

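The count of 2 called isoforms was 1 after the lowest 40% of genes were left out (Aldh1a1 was among them), 1 at an adjusted p of 0.01, and 5 without both arrays numbered 1. Leaving out single arrays gave 1 to 3. The count of 2 called probe sets was 1 at 0.01, 4 without both arrays numbered 1, and 1 to 3 with single arrays left out. Over the other lists 5 calls became 0 with a replicate block, 0 at 0.01 and 17 without both arrays numbered 1, with 0 to 8 when single arrays were left out. Each isoform kept its direction in every alternative fit that held it except Aldh1a2, whose change was −0.10 to 0.07 with single arrays left out (0.04 without + dox 3 and 0.067 without − dox 2). The filters on dim genes left out Aldh1a2, Aldh1a7 and Aldh1b1 at 20% and also Aldh1a1 and Aldh1a3 at 40%, so these have no value there. Over all genes, 886 calls became 303 with the block, 128 at 0.01, 3649 without both arrays numbered 1 and 118 to 1650 with single arrays left out. Same-numbered arrays did not deviate together (correlations of their deviations over genes −0.12, −0.22 and 0.08), and the numbers were not treated as a pairing. With the replicate block the calls of Aldh3a1 and Aldh1a1 were kept (2 calls). The cause of these shifts was not tested.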
